A study of Mus musculus with 4 samples.

Results

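Lymphoid tissue inducer (LTi) cells are innate lymphocytes of the fetus from which lymph nodes take their start, and the 6 genes described here encode the receptors through which such cells can sense cytokines of the interleukin-1 family. The genes Il1r1, Il1r2, Il1rl1, Il1rap, Il18r1 and Il18rap were taken by their symbols in the feature lists of all 4 libraries, and all 6 were present among the 31914 genes of the lists joined together. The libraries were droplet-based 3′ single-cell RNA sequencing of C57 Bl/6 mouse embryos (C57BL/6J in the protocol), with cells enriched on CD45 microbeads and then sorted as live CD45+ F4/80- IL7Rα+ cells. They covered fetal liver at E14.5, fetal liver at E13.5, embryonic periphery (tissues of the embryo outside the liver, not specified further in the labels) at E14.5 and embryonic periphery at E13.5. The labels name no genetic change and no treatment in any group, and how many embryos were pooled for a library is not given in the sources used here. The purpose, as stated for the series, was to follow the ontogeny of LTi cells between fetal liver and periphery.

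Receptors of this family work in pairs. Il1r1 encodes the signalling receptor of IL-1α and IL-1β, Il1rl1 encodes ST2, the receptor of IL-33, and Il18r1 encodes the ligand-binding chain for IL-18. Each of them needs a partner to signal, namely the product of Il1rap for IL-1 and IL-33 and the product of Il18rap for IL-18, and the assembled receptors then pass the signal through MyD88 and IRAK kinases to NF-κB. Il1r2 encodes a decoy that binds IL-1 but lacks a signalling domain. In innate lymphocytes these receptors are textbook features: IL-1 acts on group 3 cells, IL-18 on group 1 cells and IL-33 on group 2 cells. Outside the lymphocytes, IL-33 also acts on mast cells and basophils.

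Of the 6 genes, 5 lie next to each other on mouse chromosome 1, all on the plus strand, as the GENCODE M21 annotation of GRCm38 (mm10) places them. The order is Il1r2 at chr1:40074079-40125231, Il1r1 at chr1:40225080-40317257, Il1rl1 at chr1:40429570-40465415, Il18r1 at chr1:40465552-40500854 and Il18rap at chr1:40515362-40551705. Il1rl2, a receptor for IL-36 that was not a member, stands between Il1r1 and Il1rl1, and only 136 bases separate the end of Il1rl1 from the start of Il18r1. Il1rap is on another chromosome, at chr16:26581704-26730117 on the plus strand. An antisense gene, Gm16894, overlaps Il1r2, and it held 83 and 143 UMIs in fetal liver at E14.5 and E13.5 and 58 and 83 UMIs in periphery at E14.5 and E13.5. Another, Gm20319, overlaps Il1rap and held 0 and 1 UMIs in fetal liver at E14.5 and E13.5, with no entry in the periphery list. Whether the counting used strand is not given in the sources used here, so reads of Il1r2 and its antisense partner may not be told apart.

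**Figure D1:**
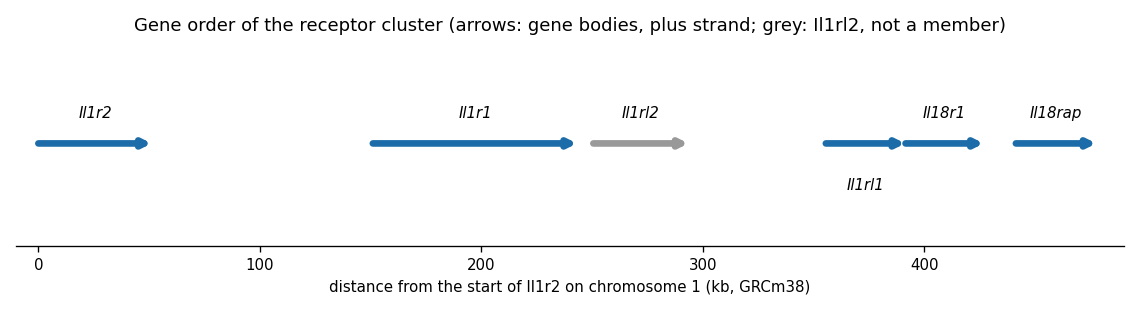
Gene bodies of the receptor cluster drawn as arrows against the distance in kb from the start of Il1r2, with the members in blue and Il1rl2 in grey. The 5 members span 478 kb, and Il18r1 begins 0.136 kb after the end of Il1rl1.

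The 4 sequences that follow are the 250 bases before annotated starts, from RefSeq on GRCm38.p6, plus strand, 5′ to 3′. They are shown because, among the cell classes described later, Il1rl1 and Il18rap were highest in one and Il1r1 in another. Capitals mark every match, on either strand, of GATAA (the core bound by GATA factors), AGGTCA (an element bound by nuclear receptors), TGTGGT (the core bound by RUNX factors) or TGANTCA (the AP-1 site), and no match overlapped another.
Il1rl1, first start, chr1:40429320-40429569: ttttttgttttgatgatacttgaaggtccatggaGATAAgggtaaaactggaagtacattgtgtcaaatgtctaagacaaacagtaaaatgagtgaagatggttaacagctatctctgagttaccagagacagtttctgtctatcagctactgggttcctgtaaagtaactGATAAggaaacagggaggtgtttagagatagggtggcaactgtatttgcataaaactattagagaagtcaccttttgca
Il1rl1, second start, chr1:40439379-40439628: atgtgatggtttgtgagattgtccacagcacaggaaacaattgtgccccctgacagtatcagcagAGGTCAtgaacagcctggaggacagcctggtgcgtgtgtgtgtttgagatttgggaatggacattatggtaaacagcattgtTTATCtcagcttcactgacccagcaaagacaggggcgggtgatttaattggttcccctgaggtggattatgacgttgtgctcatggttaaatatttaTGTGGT
Il18rap, chr1:40515112-40515361: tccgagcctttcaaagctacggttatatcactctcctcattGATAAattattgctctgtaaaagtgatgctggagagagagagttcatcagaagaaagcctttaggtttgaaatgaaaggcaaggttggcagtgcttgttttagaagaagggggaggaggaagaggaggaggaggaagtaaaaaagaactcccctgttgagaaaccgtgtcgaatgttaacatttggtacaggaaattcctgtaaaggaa
Il1r1, first start, chr1:40224830-40225079: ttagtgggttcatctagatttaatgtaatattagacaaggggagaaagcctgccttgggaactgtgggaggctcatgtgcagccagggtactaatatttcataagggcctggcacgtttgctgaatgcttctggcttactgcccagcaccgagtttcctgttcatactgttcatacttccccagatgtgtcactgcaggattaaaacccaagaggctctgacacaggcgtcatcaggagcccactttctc

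The window before the first Il1rl1 start held 2 GATAA matches, at bases 35 to 39 and 172 to 176 counted from its 5′ end. The window before the second start held 1 GATAA match in the other orientation at bases 148 to 152, 1 AGGTCA match at bases 66 to 71 and 1 TGTGGT match at bases 245 to 250. Il18rap had 1 GATAA match at bases 42 to 46, and Il1r1 had no match of the 4 motifs. Over all 32851 promoters in the table, 22.6% held GATAA, 14.02% AGGTCA, 14.05% TGTGGT and 6.75% TGANTCA in the same 250 bases. The table holds 10 starts for the 6 members, with 2 each for Il1r1 and Il1rl1 and 3 for Il18r1, and counts from the 3′ end of transcripts do not say which start was used. In the remaining windows, which are not printed, Il1r2 held 1 GATAA match, and the second Il1r1 start, Il1rap and the 3 Il18r1 starts held no match of the 4 motifs. A match is a description of letters and not of a bound site.

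Deposited UMI totals were 208229937 and 212034840 in fetal liver at E14.5 and E13.5, against 44599592 and 53229734 in periphery at E14.5 and E13.5. After filtering, 10809, 10259, 4360 and 4165 cells were kept in that order, with median depths of 15600, 18448, 8528.5 and 11084 UMIs. There was 1 library per group, so no test between groups was run. The intervals in parentheses after levels and shares of cells are exact 95% intervals (Poisson for levels, Clopper-Pearson for shares). Intervals after log2 folds are wider and not exact. Each sets the low bound of 1 level against the high bound of the other, with 5 CPM added and the all-gene median subtracted. All of these intervals cover counting error only. Fetal liver was prepared with version 3 and periphery with version 2 of the 10x Chromium 3′ kit, so tissue and kit cannot be told apart. The fetal liver libraries shared 29 cell barcodes with each other and the periphery libraries 33, at most 0.728% of the smaller library. As a check of the sort, Il7r had a UMI in 78.5 to 87.7% of cells of each library, Ptprc, which encodes CD45, in 43.3 to 86.5%, and Adgre1, which encodes F4/80, in 2.89 to 5.47%.

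Levels are UMI counts summed over cells and scaled to the UMI total (CPM). Since a 3′ UMI counts the end of a transcript, levels were not divided by gene length. In fetal liver the binding chains for IL-1 and IL-18 were scarce: over all kept cells at E14.5 and E13.5, Il1r1 stood at 2.93 CPM (2.68 to 3.19) and 6.07 CPM (5.74 to 6.43), and Il18r1 at 3.81 CPM (3.53 to 4.11) and 1.99 CPM (1.80 to 2.20). In periphery at E14.5 and E13.5, the same receptors reached 46.8 CPM (44.7 to 48.9) and 25.2 CPM (23.8 to 26.6) for Il1r1, and 55.0 CPM (52.8 to 57.3) and 24.2 CPM (22.9 to 25.6) for Il18r1. Both ligand-binding chains were thus highest in periphery at E14.5 and next in periphery at E13.5, with no overlap of intervals between any 2 of the 4 libraries.

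The decoy Il1r2 was at 9.35 CPM (8.91 to 9.81) in fetal liver at E14.5, against 29.0 CPM (28.3 to 29.8) at E13.5, and at 23.0 CPM (21.5 to 24.4) in periphery at E14.5, against 97.2 CPM (94.5 to 99.99) at E13.5. Its highest level was in periphery at E13.5, and in each tissue the younger stage was the higher one. Il18rap, the partner chain for IL-18, was at 15.7 CPM (15.1 to 16.3) and 20.05 CPM (19.4 to 20.7) in fetal liver at E14.5 and E13.5, and at 28.5 CPM (27.0 to 30.2) and 17.1 CPM (16.0 to 18.3) in periphery at E14.5 and E13.5. Of these, fetal liver at E14.5 and periphery at E13.5 had overlapping intervals.

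The IL-33 receptor Il1rl1 was at 5.54 CPM (5.20 to 5.90) and 1.78 CPM (1.60 to 1.97) in fetal liver at E14.5 and E13.5, and at 4.49 CPM (3.87 to 5.17) and 2.32 CPM (1.92 to 2.78) in periphery at E14.5 and E13.5. The older stage was the higher one in each tissue, and the intervals of the 2 libraries at E13.5 overlapped. Il1rap, the partner for IL-1 and IL-33, stayed below 4 CPM in each library, at 2.68 CPM (2.44 to 2.93) and 3.70 CPM (3.44 to 3.98) in fetal liver and 1.82 CPM (1.43 to 2.27) and 1.61 CPM (1.28 to 1.999) in periphery at E14.5 and E13.5. A library level mixes how many cells of each type were sorted with how much RNA each cell held, and those parts are separated below by cell class. Il1rl1 and Il1rap never reached the 10 CPM used here as the minimum for a gene to count as measured in whole libraries.

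**Figure D2:**
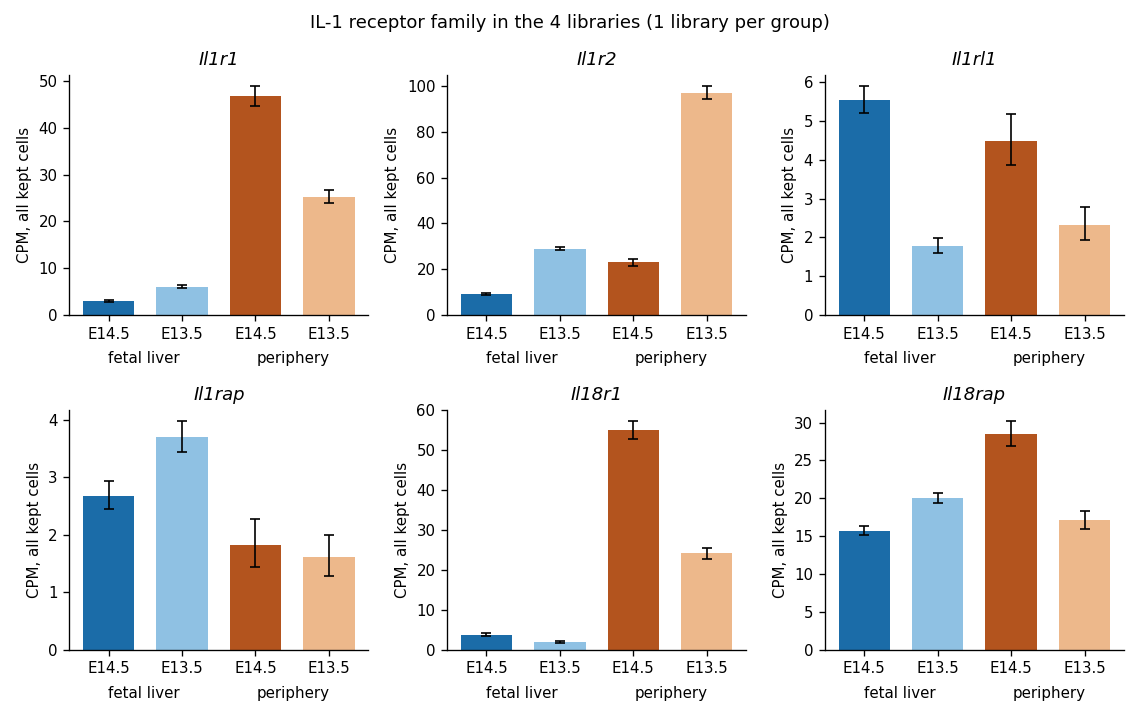
Level of each member in CPM over all kept cells of each library (1 library per group, E14.5 left of E13.5 and fetal liver left of periphery), with exact 95% Poisson intervals as bars and a separate scale per gene. Il1r1 and Il18r1 are highest in periphery at E14.5, while Il1r2 peaks at 97.2 CPM in periphery at E13.5.

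Cells were clustered within each tissue without the 6 members, so that they did not draw the clusters, and clusters were named from marker lists only. Of the clusters with at least 50 cells, 17 were in fetal liver (FL) and 16 in periphery (P). Fetal liver cluster FL12 and periphery clusters P0, P2, P3, P4, P10 and P12 were LTi-like, with 9 or 10 detected of 10 listed markers, which include Lta, Ccr6 and Cxcr5. FL7 and P11 were basophil-like, with all 7 markers such as Mcpt8, Prss34 and Gata2 detected, and FL13 was group 1 innate lymphoid or NK-like, with 8 of 12. FL13 also had enough detected markers for the innate lymphoid progenitor and T cell classes. FL12 and the LTi-like periphery clusters also had enough for the innate lymphoid progenitor class. These names are therefore not exclusive. B lineage-like clusters (FL0, FL1, FL2, FL16 and P6) serve below as the class in which these receptors should be low.

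Il1r1, the IL-1 receptor, was highest in LTi-like cells in fetal liver and in LTi-like cells and cluster P1 in periphery. FL12 held 64.2 CPM (54.2 to 75.5) at E14.5 and 47.6 CPM (42.2 to 53.5) at E13.5, and over both stages it was at 52.2 CPM, while the next fetal liver cluster, unnamed FL5, was at 8.999 CPM. Cluster FL12 had only 1.98% of kept fetal liver cells at E14.5 and 4.05% at E13.5, yet it gave 27.8% and 23.4% of the Il1r1 UMIs. In periphery, LTi-like cells were at 62.3 CPM (59.4 to 65.3) at E14.5 and 46.4 CPM (43.6 to 49.4) at E13.5, and they gave 90.0% and 78.0% of its UMIs. The unnamed cluster P1, led by the class II genes H2-Aa, H2-Eb1 and Cd74 and with LTi markers detected as well, was as high, at 73.8 and 62.4 CPM at E14.5 and E13.5. Over both stages P1, P0 and P3 stood at 66.7, 66.3 and 64.2 CPM, and the intervals of P1 and P0 overlapped. Basophil-like cells had next to none, with 2 and 0 UMIs in fetal liver and 2 and 0 in periphery at E14.5 and E13.5.

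A UMI of Il1r1 was seen in 45.3% (38.5 to 52.3) of LTi-like cells of fetal liver at E14.5 and 43.4% (38.5 to 48.3) at E13.5, at median depths of 9227 and 12507 UMIs. The B lineage-like cells of the same libraries gave 0.278% (0.148 to 0.475) and 1.44% (0.747 to 2.50), at 15235 and 13022 UMIs. In periphery the shares were 39.8% (38.1 to 41.6) and 37.4% (35.2 to 39.5) of LTi-like cells at 8234 and 10065 UMIs, against 2.26% (0.913 to 4.60) and 1.31% (0.357 to 3.31) of B lineage-like cells at 19159 and 13862.5 UMIs. After each cell was thinned to 3000 UMIs, LTi-like shares of cells with Il1r1 were 14.49% and 14.9% in fetal liver and 17.1% and 12.4% in periphery at E14.5 and E13.5, against at most 0.654% of B lineage-like cells in any library. Detection in LTi-like cells was above the level in a class that should lack the gene in each of the 4 libraries.

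Among clusters of at least 50 cells, Il1rl1, the IL-33 receptor, was highest in basophil-like cells in both tissues. FL7 held 119.5 CPM (112 to 128) at E14.5 and 123 CPM (106 to 141) at E13.5, and P11 held 150.5 CPM (126 to 178) and 87.1 CPM (68.8 to 109). A UMI of Il1rl1 was seen in 61.7% and 71.6% of basophil-like cells in fetal liver and 80.3% and 71.2% in periphery at E14.5 and E13.5, at median depths of 9989, 13252, 13445 and 16734 UMIs, against at most 0.240% of B lineage-like cells. In fetal liver FL7 alone gave 90.1% of the Il1rl1 UMIs at E14.5, with 896 of 995, and 57.7% at E13.5, with 203 of 352. The next cluster of fetal liver, FL13, was at 7.38 CPM over both stages. The stage difference seen over the whole fetal liver libraries was not detectable within FL7, where the intervals overlapped, while the share of kept cells in FL7 was 6.61% (6.15 to 7.10) at E14.5 and 1.13% (0.935 to 1.35) at E13.5. In periphery the P11 intervals did not overlap between stages, while its share of kept cells was 1.40% (1.07 to 1.79) at E14.5 and 1.25% (0.934 to 1.63) at E13.5. Basophil-like cells carried the gate gene, with an Il7r UMI in 68.0% and 63.8% of those of fetal liver and 82.0% and 67.3% of those of periphery at E14.5 and E13.5. LTi-like cells, in contrast, stayed at or below 1.86 CPM in all 4 libraries.

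In periphery a further cluster, P14, carried Il1rl1 at 40.2 CPM at E14.5 and 23.6 CPM at E13.5. P14 had 156 cells and stayed unnamed, because mast cell markers led it in few of its cells. Split further, it held 12 cells led by the mast cell protease genes Cma1 and Tpsb2 (P14.3), with 19 and 15 Il1rl1 UMIs at E14.5 and E13.5. Over both stages P14.3 was at 143 CPM (99.2 to 200), against 119 CPM (104 to 136) in basophil-like P11, with overlapping intervals. P14 also held 58 cells led by Gzma and Cysltr1 (P14.0), with 20 and 1 UMIs, at 38.5 CPM (23.5 to 59.5) at E14.5. A sub-cluster of FL13 that shares the leading genes Cysltr1 and Pxdc1 with P14.0 (FL13.1) had 20.3 CPM (12.9 to 30.5) at E14.5, with 23 of the 30 Il1rl1 UMIs of FL13. Large clusters of fetal liver also held Il1rl1 UMIs at low levels, with 45 in FL9, 39 in FL3 and 30 in FL8 over both stages, each at 1.23 CPM or less. The splitting was added after the clusters had been seen.

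Il18rap, the partner chain for IL-18, was also highest in basophil-like cells, at 158 CPM (149 to 167) and 137 CPM (119 to 156) in FL7 and 101 CPM (81.3 to 123) and 61.4 CPM (46.2 to 79.9) in P11 at E14.5 and E13.5. It was the most widespread member in fetal liver, at 10 CPM or more in 12 of 17 fetal liver clusters and 12 of 16 periphery clusters. Next in fetal liver came LTi-like FL12 at 54.5 CPM and FL13 at 53.1 CPM over both stages, and progenitor-like clusters FL3, FL4, FL8 and FL10 lay between 11.7 and 21.6 CPM. B lineage-like cells had 3.02 and 9.95 CPM in fetal liver and 1.70 and 0.892 CPM in periphery at E14.5 and E13.5, and in fetal liver FL2, the cluster whose leading genes include Rag1 and Pax5, held 174 of the 233 B lineage-like UMIs at E14.5 and 118 of the 118 at E13.5.

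Il18r1, which binds IL-18, was highest in fetal liver in group 1 innate lymphoid or NK-like FL13, at 84.0 CPM (74.4 to 94.6) at E14.5 and 61.2 CPM (47.2 to 78.0) at E13.5. LTi-like FL12 followed at 47.1 CPM (38.6 to 56.9) and 23.6 CPM (19.9 to 27.9), with basophil-like FL7 at 27.6 and 26.0 CPM and an overlapping interval at E13.5, and no other fetal liver cluster of at least 50 cells reached 10 CPM. In periphery LTi-like cells carried it at 64.9 CPM (61.9 to 67.9) at E14.5 and 34.1 CPM (31.6 to 36.6) at E13.5. P5, an unnamed cluster led by Gbp2, Cxcl10 and Ifng, was the highest single cluster at E14.5 with 100.4 CPM (85.4 to 117), against 62.3 CPM (50.7 to 75.8) at E13.5, though at E14.5 its interval overlapped those of P1, P3, P9, P12 and P14 among clusters with at least 50 cells at that stage, and the wide one of P7. LTi-like P3, which was almost entirely of the E14.5 library, held 83.2 CPM (76.8 to 89.9) at E14.5, and P14 held 75.3 and 47.2 CPM at E14.5 and E13.5. Over both stages P3 and P5 had overlapping intervals.

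A UMI of Il18r1 was seen in 40.1% (38.4 to 41.8) and 27.6% (25.7 to 29.6) of LTi-like cells of periphery at E14.5 and E13.5, against 2.26% (0.913 to 4.60) and 0.980% (0.203 to 2.84) of B lineage-like cells, at the median depths given for Il1r1. Thinned to 3000 UMIs, the LTi-like shares were 17.4% and 10.0%. For fetal liver FL13 the thinned shares were 24.3% and 13.3% at E14.5 and E13.5, and at most 0.242% of B lineage-like cells had a UMI.

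The decoy Il1r2 was spread over more clusters than Il1r1 or Il18r1, at 10 CPM or more in 9 of 17 fetal liver clusters and 14 of 16 periphery clusters. LTi-like FL12 was highest in fetal liver, at 96.3 CPM (84.0 to 110.0) at E14.5 and 209 CPM (198 to 221) at E13.5. Unnamed FL5, led by Jchain and Klrd1 and with Il1r2 itself among its leading genes, followed at 42.3 and 68.4 CPM at E14.5 and E13.5, and unnamed FL6 had 41.7 and 48.0 CPM. Il1r2 was also present in basophil-like cells, at 35.5 and 55.0 CPM in FL7 and 56.3 and 72.5 CPM in P11 at E14.5 and E13.5. Plasmacytoid-primed-like FL14 had 28.4 and 44.5 CPM.

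In periphery the highest Il1r2 was in LTi-like P2, where 628 cells at E13.5 held 263 CPM (251 to 276) and 37 cells at E14.5 held 271 CPM (219 to 331). Il1r2 was itself among the 10 leading genes of P2, although the members were left out of the clustering. Among cells of E13.5, unnamed P9, led by genes that include Ccl5, Cd3g and Klrd1, came next at 204 CPM, then class II-led P1 at 197 CPM and unnamed P15, led by genes that include Hmga2, Cd34 and Flt3, at 103 CPM. Together P2, P15 and P9 gave 1700, 1013 and 807 of the 4896 Il1r2 UMIs of periphery at E13.5. A UMI of Il1r2 was seen in 34.6% (28.2 to 41.4) and 77.3% (73.0 to 81.3) of LTi-like cells of fetal liver at E14.5 and E13.5, against 1.56% (1.23 to 1.96) and 8.52% (6.72 to 10.6) of B lineage-like cells. The thinned shares were 17.4% and 42.4% of LTi-like and 0.454% and 2.18% of B lineage-like cells.

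Il1rap had no class of its own. It was below 10 CPM in each cluster of at least 50 cells, with the highest values over both stages at 4.67 CPM in neutrophil-like FL15 and 3.93 CPM in plasmacytoid-primed-like P17, and both shared their interval with the next cluster. B lineage-like cells had 1.81 and 2.44 CPM in fetal liver and 1.87 and 1.78 CPM in periphery at E14.5 and E13.5, and LTi-like cells, at 2.20, 3.04, 1.75 and 1.36 CPM in the same order, had overlapping intervals with them. Small differences were seen between some clusters: over both stages innate lymphoid progenitor-like FL3 and unnamed FL9 stood at 4.08 CPM (3.41 to 4.85) and 4.35 CPM (3.77 to 4.99), with intervals above those of all 4 B lineage-like clusters of fetal liver, which ran from 1.18 to 2.14 CPM, whereas stem or multipotent progenitor-like FL8, at 2.89 CPM (2.43 to 3.40), overlapped with FL2.

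**Figure D3:**
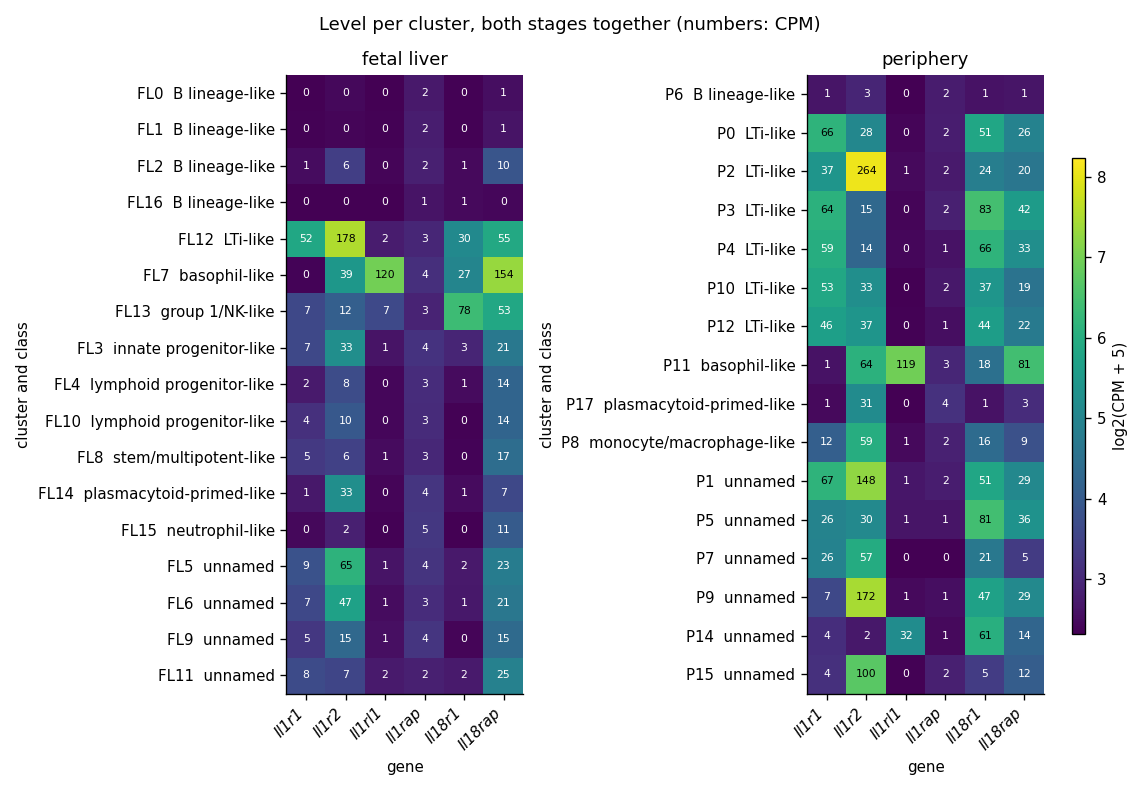
Level of each member in each cluster of at least 50 cells, both stages together, as log2(CPM + 5) in colour with the CPM printed in each field, for fetal liver and periphery. Il1rl1 stands out in basophil-like FL7 and P11, Il1r1 in LTi-like clusters, and Il1r2 at 264 CPM in P2 and 178 CPM in FL12.

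The first comparison was between the stages in fetal liver. Il1r2 was lower at E14.5, with a log2 fold of -1.21 (-1.29 to -1.14), and it was the 1 member past 2-fold of the 2 that were measured; of all measured genes, 1.65% passed 2-fold in either direction, 1.33% higher and 0.323% lower. Folds are E14.5 over E13.5 after adding 5 CPM to both sides, minus the median of all measured genes, which was -0.03 here, and adding 5 CPM understates the folds of genes at low levels. Il18rap, the other measured member, had a log2 fold of -0.24. Il1r1, Il1rl1 and Il18r1 were under the minimum level, with log2 folds of -0.45, 0.67 and 0.36, although their counting intervals did not overlap between the stages, and so was Il1rap, with -0.15.

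The second comparison was between the stages in periphery, and Il1r2 was again lower at E14.5, with a log2 fold of -2.10 (-2.21 to -1.98). It was the 1 member past 2-fold of 4 measured, against a background of 3.76% of genes in either direction, 1.48% higher and 2.28% lower. Il18r1, Il1r1 and Il18rap were higher at E14.5 by log2 folds of 0.81, 0.55 and 0.37, short of 2-fold, and Il1rl1 and Il1rap, both under the minimum level, had 0.15 and -0.18. The median of all genes was 0.23 before centring, and without centring Il18r1 passed 2-fold as well, with a log2 fold of 1.04; of the genes past 2-fold, 39.3% were higher at E14.5 with centring and 68.4% without.

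Inside LTi-like cells of periphery the decoy was lower at E14.5 as well, at 23.4 CPM (21.6 to 25.2), against 104 CPM (99.97 to 109) at E13.5, a log2 fold of -2.19 (-2.34 to -2.04). It was the 1 of 4 measured members past 2-fold, against a background of 2.71% either way, 1.1% higher and 1.62% lower, and Il18r1 had a log2 fold of 0.59, Il18rap of 0.31 and Il1r1 of 0.14. The median of all genes was 0.24 before centring, and 40.4% of the genes past 2-fold were higher at E14.5 with centring and 71.7% without. The class was made of different clusters at the 2 stages, with P0, P3 and P4 holding most of it at E14.5 and P2, P10 and P12 at E13.5. P2 made up 1.16% of LTi-like cells at E14.5 and 31.3% at E13.5. Without P2 the levels were 20.3 CPM (18.7 to 22.0) at E14.5 and 35.2 CPM (32.2 to 38.3) at E13.5, and the log2 fold of -0.90 no longer passed 2-fold; P2 was picked out after its level had been seen. With marked doublets kept and cells clustered again, 1449 instead of 2005 cells of E13.5 were LTi-like and the log2 fold was -0.97.

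In fetal liver LTi-like FL12, 214 cells at E14.5 and 415 at E13.5, Il1r2 had a log2 fold of -1.11 (-1.37 to -0.85), and 1 of 4 measured members passed 2-fold, against 2.49% of genes either way, 1.73% higher and 0.764% lower. Il18r1 was higher at E14.5 with 0.83 and Il1r1 with 0.37, both short of 2-fold. Over all innate lymphoid-like cells of fetal liver (FL3, FL12 and FL13), Il18r1 was higher at E14.5, at 26.4 CPM (23.9 to 29.1) against 9.10 CPM (8.03 to 10.3), a log2 fold of 1.15, and Il1r2 was lower with -1.34. These were 2 of 4 measured members past 2-fold, with 1.32% of genes past it either way, 1.14% higher and 0.18% lower. The make-up of this group differed between stages, since FL13 held 281 of 969 cells at E14.5 and 87 of 1497 at E13.5, and inside FL13 the Il18r1 intervals of the stages overlapped. When cells were required to have 1000 genes or more and a mitochondrial share of 5% or less, Il1r2 fell short of 2-fold, with log2 folds of -0.90 in FL12 and -0.87 over the innate lymphoid-like cells.

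Il1r2 was then compared between stages inside single clusters. Of 15 fetal liver clusters with at least 50 cells at each stage, 12 had it at 10 CPM or more, and in all 12 the E14.5 cells were lower, by log2 folds from -1.78 to -0.18 without centring. Of 8 such clusters in periphery, 6 had it at 10 CPM or more and all 6 were lower at E14.5, from -1.78 to -0.23. P2, the cluster highest for Il1r2, had 37 cells at E14.5 and so was not among them, and its level at E14.5 was not lower, at 271 against 263 CPM at E13.5, with overlapping intervals. In FL9, FL11, FL12 and FL13 and in P1, P8 and P9 Il1r2 was past 2-fold without centring. The share of all genes past 2-fold inside a single cluster was computed for FL12 only, as given above. Clusters of a tissue come from the same pair of libraries and are not replicates. For Il18r1 the order was the other way: the E14.5 cells were higher in 3 of 3 such clusters of fetal liver and 6 of 7 of periphery. The smallest of the fetal liver folds was 0.07, in FL7. P1 and P12 passed 2-fold only narrowly, with log2 folds of 1.04 and 1.02 without centring. Over the whole periphery libraries the all-gene median was 0.23 before centring, more than the margin by which they passed. Without centring, Il18rap was lower at E14.5 in 12 of 13 fetal liver clusters and higher in 5 of 6 periphery clusters. Its log2 folds lay between -0.75 and 0.67, and no cluster was past 2-fold. Of the 5 in periphery, P5 at 0.18 was below the whole-periphery all-gene median of 0.23 and P14 at 0.24 was close to it. Their direction therefore depends on the centring.

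**Figure D4:**
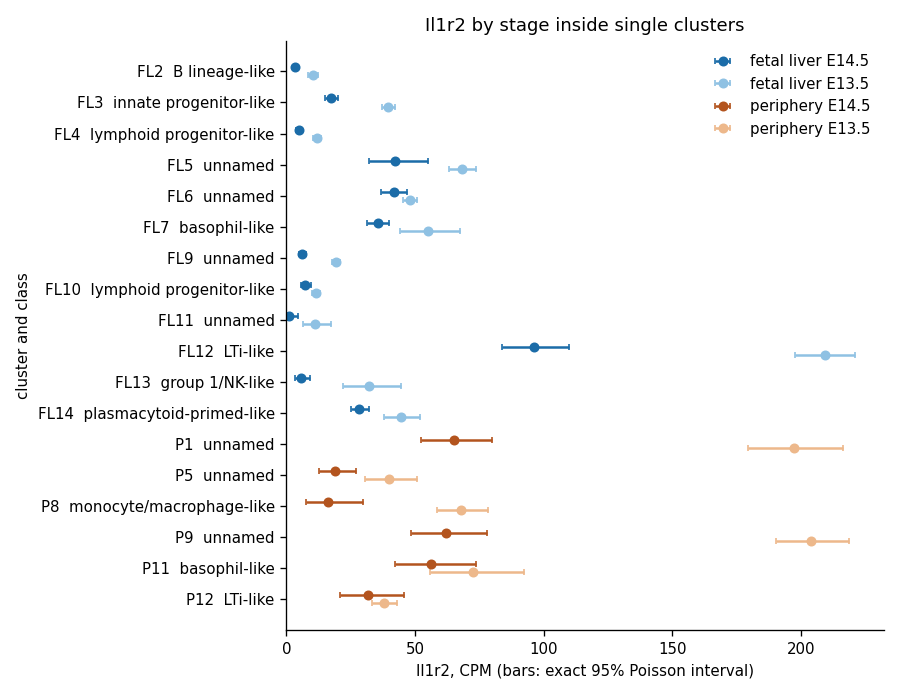
Il1r2 level in CPM at E14.5 and E13.5 in each cluster with at least 50 cells at both stages and 10 CPM at 1 of them, with exact 95% Poisson intervals. The E14.5 point lies left of the E13.5 point in 12 of 12 fetal liver and 6 of 6 periphery clusters.

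FL12 was split into 5 sub-clusters, which differed in their levels of the decoy Il1r2 beside those of Il1r1 and Il18r1. FL12.0, led by the effector cytokine genes Il22 and Lta and by Cxcr6, had 11.1 CPM (5.05 to 21.0) of Il1r2 at E14.5 and 26.9 CPM (10.8 to 55.3) at E13.5. Its Il1r1 was 73.7 CPM (56.2 to 94.9) and 92.1 CPM (59.0 to 137), and its Il18r1 68.8 CPM (52.0 to 89.3) and 69.1 CPM (40.9 to 109). In this sub-cluster Il1r1 stood above the IL-1 decoy Il1r2 at each stage. Il18r1, which belongs to the IL-18 receptor, was above Il1r2 as well, although their intervals overlapped at E13.5.

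In the other 4 sub-clusters the decoy was the higher of the 2 IL-1 receptors at each stage. FL12.2, led by Ccl5 and Jchain, had 215 CPM (164 to 277) and 336 CPM (307 to 368) of Il1r2, with Il1r1 at 57.4 and 40.5 CPM at E14.5 and E13.5. FL12.3, led by class II genes and Ly6d, had 227 and 221 CPM of Il1r2, and FL12.4, with 8 and 99 cells, had 203 and 183 CPM. FL12.1, led by Cpa3 and Zbtb16, had 93.8 and 164 CPM. FL12.0 made up 101 of 214 cells of FL12 at E14.5 and 30 of 415 at E13.5, so the stage difference of the cluster and its make-up moved together, and within FL12.1 and FL12.2 the E14.5 cells were the lower ones, while in FL12.3 and FL12.4 they were not. In periphery the same contrast was seen between LTi-like clusters: Il1r2 was 14.97 CPM beside Il1r1 of 64.3 CPM in P3 at E14.5, and 263 CPM beside 37.4 CPM in P2 at E13.5.

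**Figure D5:**
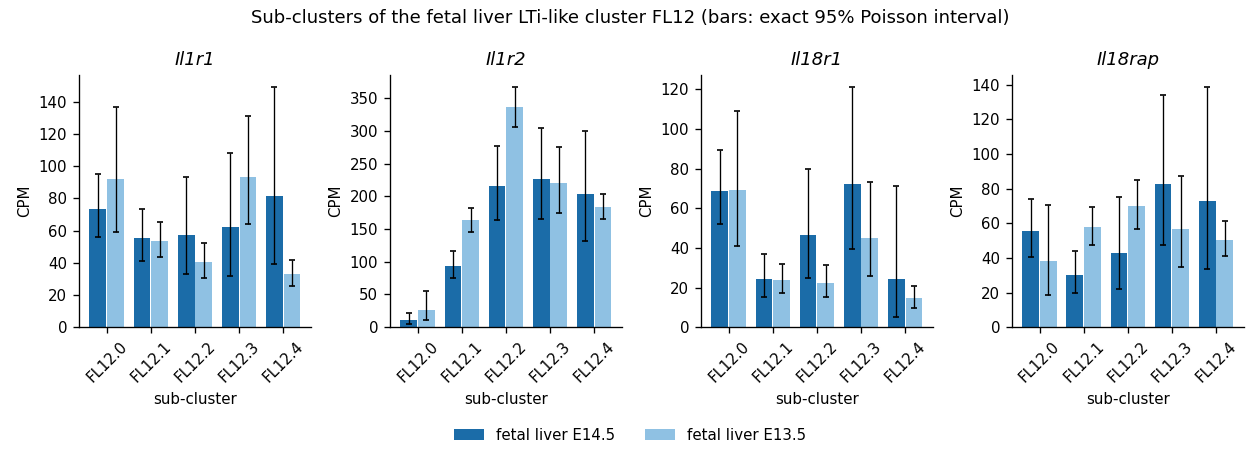
Level in CPM of Il1r1, Il1r2, Il18r1 and Il18rap in the 5 sub-clusters of fetal liver LTi-like FL12 at E14.5 and E13.5, with exact 95% Poisson intervals. Il1r2 is lowest in FL12.0, where Il1r1 and Il18r1 are above 65 CPM at both stages.

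Between tissues, Il1r1, Il1r2 and Il18r1 were lower in fetal liver than in periphery at each stage, with tissue and kit version inseparable. At E14.5 the log2 folds of fetal liver over periphery were -2.88, -1.13 and -2.94, and at E13.5 they were -1.86, -1.997 and -2.47. That made 3 of 4 measured members past 2-fold at each stage, where 23.7% of all genes passed it at E14.5 and 23.1% at E13.5, with 12.3% and 12.7% lower in fetal liver. Il18rap, the other measured member, was at -0.87 and -0.23. LTi-like cells made up 1.98% (1.73 to 2.26) and 4.05% (3.67 to 4.44) of fetal liver cells against 72.8% (71.5 to 74.2) and 48.1% (46.6 to 49.7) of periphery cells at E14.5 and E13.5. Within LTi-like cells the intervals of Il1r1 overlapped between tissues, since at E14.5 it was 64.2 CPM (54.2 to 75.5) in fetal liver against 62.3 CPM (59.4 to 65.3) in periphery, and at E13.5 47.6 CPM (42.2 to 53.5) against 46.4 CPM (43.6 to 49.4). Il18r1 within LTi-like cells was lower in fetal liver, at 47.1 against 64.9 CPM at E14.5 and 23.6 against 34.1 CPM at E13.5. Neither statement held for sub-cluster FL12.0 of the fetal liver class. Its Il18r1 interval, given above, overlapped that of periphery LTi-like cells at E14.5 and lay above it at E13.5. The Il1r1 interval of FL12.0 also lay above that of periphery LTi-like cells at E13.5. Il1r2 within LTi-like cells was higher in fetal liver, the opposite order to the whole libraries. It was at 96.3 against 23.4 CPM at E14.5 and 209 against 104 CPM at E13.5. This order did not hold for all of FL12, the fetal liver class. Sub-cluster FL12.0 was below the periphery level, at 11.1 CPM (5.05 to 21.0) at E14.5 and 26.9 CPM (10.8 to 55.3) at E13.5. The other sub-clusters of FL12 were above the periphery level at each stage. The all-gene medians before centring were 0.17 at E14.5 and 0.41 at E13.5, and without centring Il1r2 at E14.5 stood at -0.96, short of 2-fold; the share of genes past 2-fold that were higher in fetal liver was then 59.9% and 75.0%, against 48.2% and 45.2% with centring.

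A receptor needs both chains in one cell, and at these depths both were rarely seen together. For IL-18, a UMI of Il18r1 and of Il18rap was found in 2.32%, 1.62%, 9.84% and 4.56% of cells in fetal liver at E14.5 and E13.5 and periphery at E14.5 and E13.5. In fetal liver at E14.5, Il18rap was seen in 53.4% of cells with Il18r1, against 14.9% of cells without it, and in periphery at E14.5 in 27.3% against 19.4%. Inside the LTi-like, basophil-like and group 1 or NK-like classes, cells with both chains numbered 0.97 to 1.25 times what their shares alone would give. In LTi-like cells there were 27 cells against 27.3 in fetal liver at E14.5, 53 against 54.6 at E13.5, 340 against 307 in periphery at E14.5 and 112 against 102 at E13.5. In basophil-like FL7 at E14.5 the numbers were 135 against 116. In group 1 innate lymphoid or NK-like FL13 they were 65 against 57.6 at E14.5 and 23 against 18.3 at E13.5. Whether these exceed what the shares give was not tested.

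For IL-1, Il1r1 and Il1rap met in 28, 88, 30 and 11 cells of the 4 libraries in the same order, and Il1rl1 and Il1rap in 22, 16, 3 and 2. With Il1rap at a few CPM, a missing UMI says nothing about the missing protein. Any of the 3 receptors with both chains was seen in 2.71, 2.57, 10.48 and 4.87% of cells, and after thinning to 3000 UMIs in 0.451, 0.149, 1.96 and 0.595%. Receptor and decoy also shared cells: Il1r1 and Il1r2 were found together in 37 LTi-like cells of fetal liver at E14.5 and 141 at E13.5, and in 165 and 265 LTi-like cells of periphery, where their shares alone would give 33.5, 139, 169 and 278.

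Over the 33 clusters of at least 50 cells, levels as log2(CPM + 5) were compared between members as a description; clusters of a tissue share libraries and depth. Il1r1 and Il18r1 were the most alike pair (Pearson r = 0.72), then Il18r1 and Il18rap (0.60) and Il1rl1 and Il18rap (0.59), while Il1r1 and Il1rl1 were opposed (-0.25). The genes most like Il1r1 were Il17re (r = 0.96), a receptor chain for IL-17C, then Kcnk1, Arnt2, 1700001C19Rik and Serinc2 (0.95 to 0.96). For Il18r1 they were Rora (0.98), Bik, Txk, Arg1 and Chpf (0.95 to 0.96). For Il1rl1 they were Gna14 (0.98), Gm11697, Kel, Slc18a2 and Slc6a4 (0.95 to 0.98), among which Slc18a2 and Slc6a4 transport monoamines. Il18rap was most like Lasp1 (0.92), and then Chn2, Ccdc88b, Arap3 and Unc13d at 0.86 to 0.87, the last of which encodes a protein for granule release. Il1r2 had the loosest companions, with Cfp (properdin) at 0.85, Arrb2, Rasgrp4, Tpm2 and Rcn3 at 0.79 to 0.84. With Spearman's rho in place of Pearson's r, 0 of these 5 genes stayed for Il1r1, 0 for Il1rl1, 1 for Il18rap, 2 for Il18r1 and 3 for Il1r2, and Il1rap reached 10 CPM in no cluster and had no such list.

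The ligands of these receptors were scarce among the sorted cells of fetal liver. The libraries hold sorted cells only, so they do not show ligand levels of the whole tissue, in fetal liver or in periphery. None of the 11 ligand and inhibitor genes that the gene lists hold reached 10 CPM in fetal liver at either stage. The highest there were Il18, at 3.23 and 5.78 CPM, Il1b, at 1.498 and 2.25 CPM, and the IL-18 inhibitor Il18bp, at 0.518 and 0.409 CPM at E14.5 and E13.5. In periphery 3 of the 11 reached it, and 2 of them were lower at E14.5 past 2-fold: Il1b, at 3.02 CPM at E14.5 against 60.01 CPM at E13.5, with a log2 fold of -3.24, and Il18, at 2.15 against 10.1 CPM, with -1.30, where 3.76% of all genes passed 2-fold and 2.28% were lower. Il33 stood at 10.2 CPM at E14.5 and 2.28 CPM at E13.5, with a log2 fold of 0.84. Of the other receptors of the family only Sigirr, a negative regulator, was measured, at 24.7 and 28.3 CPM in fetal liver and 43.0 and 30.4 CPM in periphery at E14.5 and E13.5, and it did not pass 2-fold in any of the 7 comparisons. Il1rl2 reached at most 2.43 CPM, in fetal liver at E13.5, and Il1rapl1 and Il1rapl2, accessory-like receptors, at most 0.0151 CPM.

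The signalling genes downstream were counted in the same way. Of 20 listed, 17 were measured in fetal liver and 0 passed 2-fold, with a median log2 fold of -0.09, and 14 were measured in periphery and 1 passed it, with a median of 0.05, where the median of all genes is 0 by centring. In fetal liver Nfkbia had 0.88 and Nfkb1 -0.61, both short of 2-fold. The 1 in periphery was Nfkb1, an NF-κB subunit, at 53.1 CPM at E14.5 against 100.1 CPM at E13.5, and it was lower in LTi-like cells of periphery too, with a log2 fold of -1.18. Myd88, the shared adaptor, was at 23.5 and 29.4 CPM in fetal liver and 31.1 and 31.4 CPM in periphery at E14.5 and E13.5. Among the highest signalling genes of a library were also Tab2 at 42.0, 60.6, 67.9 and 42.9 CPM and Irak1 at 48.7, 61.2, 17.3 and 16.4 CPM in the same order, and Ikbkb between 36.4 and 48.9 CPM. Between tissues 2 signalling genes were higher in fetal liver (Irak1 and Mapk14) and 2 lower (Irak2 and Nfkbia) at each stage, of 17 measured at E14.5 and 18 at E13.5, where 23.7% and 23.1% of all genes passed 2-fold, a like share. Nfkbia, the NF-κB inhibitor that is itself induced by NF-κB, stood at 119 and 63.8 CPM in fetal liver against 1248 and 1319 CPM in periphery at E14.5 and E13.5. Of 9 ligand-processing genes 3 were measured at each stage comparison of whole libraries and 0 passed 2-fold, with Pycard the highest at 175 and 247 CPM in fetal liver and 282 and 426 CPM in periphery. Casp8 followed at 88.8, 97.0, 76.7 and 68.3 CPM in the same order, then Gsdmd at 11.8 to 15.03 CPM.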

How the data were processed

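The authors deposited UMI counts for each gene in each cell barcode, without normalization. The submitters' processing notes name Cell Ranger version 3 and mm10; per the file headers, fetal liver was counted with version 3.0.0 and periphery with 3.0.1. The lists hold 31053 and 28427 genes, of which 27566 are shared, and neither the gene-model releases nor the strand setting is stated in the labels or headers. Barcodes were kept from 500 genes up, with a mitochondrial share of 10% or less. Doublets scored with Scrublet (scanpy 1.11.5, expected rate 0.8% per 1000 barcodes) were removed, 893 and 382 in fetal liver at E14.5 and E13.5 by its automatic threshold, and 145 and 140 in periphery as the top scores up to the expected rate.

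Cells of each tissue were clustered over both stages: counts scaled to 10000 per cell and log-transformed, 2000 variable genes without the members, mitochondrial, ribosomal, haemoglobin and cell-cycle genes, 30 principal components, 15 neighbours, Leiden resolution 1, seed 1. Names came from 18 marker lists: a marker counted as detected from 20 CPM up if it also exceeded the clusters' lower quartile by 1 log2 unit, a class needed at least 3 and over 50% of its markers, and a cluster whose 10 leading genes held more markers of another class, or in which under 50% of cells had its leading markers, stayed unnamed. That last rule, the sub-clusters of FL12, FL13 and P14 (resolution 0.5) and the FL12 comparison were added after seeing the data. Members, lists and rules were chosen with earlier results of these data known.

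CPM were computed here from summed UMIs, a gene counted as measured from 10 CPM up in 1 of the compared libraries, and folds were taken with 5 CPM added. The named genes were the members, pathway genes past 2-fold in a stage comparison or among the highest 3 of their list by CPM, and the 5 genes most like each member over clusters; Myd88 and the tissue differences were added after their values were seen. Fold calling was tested on simulated data with known changes. That check covers the calling step only and says nothing about variation between embryos or libraries, since each group is 1 library.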

Additional observations from a re-analysis of the deposited data

Results flagged for a closer look

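The fold of Il1r1 between stages had opposite signs in the 2 tissues, at -0.45 in fetal liver and 0.55 in periphery (log2, E14.5 over E13.5), a difference of -1.001, and the counting intervals did not overlap in either tissue. Il18rap did the same, at -0.24 in fetal liver and 0.37 in periphery, a difference of -0.62. Neither difference was tested, since each group is 1 library. Inside LTi-like cells the fold of Il1r1 was 0.37 (-0.01 to 0.74) in fetal liver and 0.14 (-0.00 to 0.29) in periphery. The sign was the same in both tissues, and these wider, centred fold intervals include 0. The counting intervals of the Il1r1 levels in LTi-like cells, given above, did not overlap between stages in either tissue. Il18rap there had -0.27 (-0.67 to 0.12) in fetal liver, an interval that includes 0, and 0.31 (0.11 to 0.50) in periphery. LTi-like cells made up 1.98% of fetal liver cells at E14.5 and 4.05% at E13.5, and 72.8% and 48.1% of periphery cells; their part in the whole-library folds was not tested.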

How the results depend on the processing

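No paired analysis was possible because each group has 1 library and the labels give no replicate numbers, and for the same reason no replicate could be left out. Of 71 alternative counts of members past 2-fold, or sharing their class of highest level, 65 stayed within 1.5 times the main value. The 6 that moved were these: in periphery between stages 2 members instead of 1 passed 2-fold with no minimum level, and 2 without centring, Il18r1 being the added one each time; in periphery LTi-like cells 0 instead of 1 with marked doublets kept, and 0 with cluster P2 left out, an alternative added after seeing the data; in fetal liver 1 instead of 2 in innate lymphoid-like cells, and 0 instead of 1 in LTi-like cells, when cells needed 1000 genes and a mitochondrial share of 5% or less. The cause was not tested, except that leaving out P2 removes the cells highest for Il1r2. Of 330 alternative folds of members, 230 stayed within the counting interval of the main value, 100 did not and 0 turned direction among those past 2-fold. At E14.5 Il1r2 dropped out of the tissue comparison with no minimum level, without centring or with equal weight per cell, and these counts are among the 65. The class of highest level held for 6 of 6 members in the 8 alternative clusterings of fetal liver and for 5 or 6 of 6 in those of periphery, where Il1r2 and Il18r1 changed class. The share of genes past 2-fold that were higher also moved by over 10 percentage points without a minimum level, to 61.8% in periphery between stages, and to 72.4% at E13.5 and 58.5% at E14.5 between tissues. In periphery LTi-like cells it was 60.5% with no minimum level. In fetal liver innate lymphoid-like cells it was 86.4%, against 96.3% with the stricter cell filter. Il1rap was under the minimum level in all 7 comparisons.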

Other observations

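The IL-1 ligand Il1b and the IL-33 gene sat in different sorted cells of periphery. Il1b was highest in monocyte or macrophage-like P8 and basophil-like P11, at 104 CPM (80.0 to 133) and 50.9 CPM (37.4 to 67.7) at E14.5, against 507 CPM (481 to 534) and 556 CPM (508 to 607) at E13.5. Unnamed P15 of E13.5 held 78.4 CPM (73.0 to 84.1), and B lineage-like P6 held 0.170 CPM (0.00431 to 0.948) at E14.5 against 8.92 CPM (6.37 to 12.1) at E13.5. In the same E13.5 cells of P15, the decoy Il1r2 was at 103 CPM and the receptor Il1r1 at 3.76 CPM.

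Il33, in contrast, was found in LTi-like cells at E14.5, with 21.5 CPM (18.3 to 25.01) in P3, 12.6 CPM (10.3 to 15.3) in P4 and 10.9 CPM (9.06 to 12.98) in P0, and in unnamed P1 at 19.5 CPM (12.9 to 28.4), against 0.680 CPM (0.185 to 1.74) in B lineage-like P6. At E13.5 the LTi-like clusters P10 and P12 had 7.64 CPM (5.83 to 9.83) and 4.92 CPM (3.37 to 6.94), and P2, the cluster highest for Il1r2, had 1.24 CPM (0.535 to 2.44). The receptor for IL-33, Il1rl1, was at or below 0.367 CPM in P0, P3 and P4 at E14.5. These genes were picked out after their values had been seen.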
